A study of Mus musculus with 69 samples.

Results

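Pou5f1, Sox2, Nanog, Sall4 and Utf1 are the core pluripotency factors examined here, chosen by name as 5 of the 15924 genes listed in any of 3 tables of expression values. All 5 were present in each table and passed its filter on low values. Pou5f1 encodes OCT4, a POU-domain transcription factor, and Sox2 encodes the HMG-box factor that binds DNA beside OCT4. Nanog encodes a homeodomain factor that stabilises self-renewal, Sall4 encodes a zinc-finger factor of early embryonic and germ cells, and Utf1 encodes a chromatin-associated protein of undifferentiated cells. OCT4 and SOX2 bind side by side on joined octamer and Sox sequences, and they regulate their own genes, Nanog and Utf1. In mouse embryonic stem (ES) cells these genes are active, and their expression normally declines as cells differentiate. Sox2 also persists in neural progenitors and Sall4 in some early lineages, so neither marks pluripotent cells alone. Polycomb repressive complex 2 (PRC2), whose main catalytic subunit is EZH2, places the repressive histone mark H3K27me3.

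The series asks whether H3K27me3 is needed for early differentiation and for keeping a differentiated identity. All cells were CJ7 mouse ES cells, an established line grown on feeder fibroblasts with leukaemia inhibitory factor, or embryoid bodies formed from them in hanging drops. One experiment compared the EZH2 inhibitor GSK343 at 4 µM, given from 3 days before differentiation onwards, with an equal volume of the solvent dimethyl sulfoxide (DMSO), in ES cells and in embryoid bodies at day 4 and day 8, with 2 libraries per group. A second compared wild-type with EZH2-mutant cells at the same stages, with 3 libraries per group; the labels name neither the allele nor the number of clones. In the third, embryoid bodies formed in DMSO or GSK343 were replated for 5 days in ES cell medium with DMSO or GSK343 and collected at day 14. Replated groups are named by the treatment during differentiation and then the one after replating. DMSO then DMSO, DMSO then GSK343 and GSK343 then DMSO had 3 libraries each, and GSK343 then GSK343 had 2, its library 3 being not analysed here. The labels do not say that libraries of a group came from separate cultures, so p-values measure the spread between libraries, which may be technical.

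Genes lie on GRCm38.p6 at chr17:35506032-35510777 for Pou5f1, chr3:34649995-34652461 for Sox2, chr6:122707489-122714633 for Nanog, chr2:168748332-168767201 for Sall4 and chr7:139943856-139945112 for Utf1. The 250 bases before a transcription start are shown for the 4 genes that have an entry in the RefSeq promoter table, since they are where the Polycomb peaks described later do or do not reach. All 4 genes are on the plus strand, and for Pou5f1 and Nanog, which have 2 starts each in the table, the first start is shown. Capitals mark exact matches, on either strand, to the GC box GGGCGG, the CCAAT box CCAAT, the nuclear receptor half-site AGGTCA, the Sox core CATTGT and the first 7 letters of the octamer, ATGCAAA. The whole octamer ATGCAAAT, the TATA box TATAAA and the E box CACGTG had no match.
Pou5f1, chr17:35505782-35506031: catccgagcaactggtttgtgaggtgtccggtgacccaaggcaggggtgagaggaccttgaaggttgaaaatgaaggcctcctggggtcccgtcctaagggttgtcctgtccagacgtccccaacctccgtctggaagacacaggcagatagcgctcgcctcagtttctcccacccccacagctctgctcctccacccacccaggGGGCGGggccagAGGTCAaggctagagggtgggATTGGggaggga
Sox2, chr3:34649745-34649994: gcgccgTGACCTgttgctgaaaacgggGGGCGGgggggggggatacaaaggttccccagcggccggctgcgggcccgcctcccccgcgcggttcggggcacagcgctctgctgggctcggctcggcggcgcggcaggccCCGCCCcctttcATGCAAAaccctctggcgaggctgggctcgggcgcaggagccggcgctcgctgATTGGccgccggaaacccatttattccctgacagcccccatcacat
Nanog, chr6:122707239-122707488: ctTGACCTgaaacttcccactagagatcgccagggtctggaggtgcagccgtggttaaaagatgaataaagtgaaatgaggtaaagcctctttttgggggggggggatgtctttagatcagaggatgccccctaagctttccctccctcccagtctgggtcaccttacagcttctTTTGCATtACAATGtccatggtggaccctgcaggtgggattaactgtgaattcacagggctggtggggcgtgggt
Utf1, chr7:139943606-139943855: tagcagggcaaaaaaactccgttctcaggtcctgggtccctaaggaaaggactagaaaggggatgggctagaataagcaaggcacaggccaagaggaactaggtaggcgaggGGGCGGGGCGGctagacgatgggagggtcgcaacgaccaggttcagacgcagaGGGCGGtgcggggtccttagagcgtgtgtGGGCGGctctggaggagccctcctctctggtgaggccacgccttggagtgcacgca

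The 4 stretches differed in composition. Over the 300-base windows, which add 50 bases after the start, the Sox2 window held 27 CpG, that of Utf1 17, that of Pou5f1 11 and that of Nanog 4, against a median of 7 over 32851 RefSeq promoter windows. In the Nanog stretch the reverse complement of ATGCAAA began 75 bases before the start and that of the Sox core began 67 bases before it, the 2 being separated by a single base. Sox2 had ATGCAAA 99 bases before its start and no Sox core. ATGCAAA was present in 4.63% of all windows and CATTGT in 12.6%. Pou5f1 had a GC box 45 bases and a half-site 33 bases before its start, and Utf1 had 4 GC boxes, the first pair overlapping by a base. GC boxes were present in 35.7% of all windows, CCAAT in 37.4% and AGGTCA in 16.3%. These matches describe letters and were not measured as binding.

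Expression values are RPKM, reads divided by gene length and library size, and so can be compared between genes within a table. Reads per library ran from 5.01 to 22.0 M (mega) in the inhibitor experiment, from 7.17 to 28.5 M in the mutant experiment and from 2.27 to 8.34 M in replated cultures. Ribosomal precursor RNA (Rn45s) took 6.38% to 11.5%, 4.08% to 57.9% and 8.66% to 34.0% of reads in the same order. Ezh2, the mutated gene, ran from 18.3 to 26.5 RPKM in the 9 mutant libraries and from 37.2 to 62.5 RPKM in the 9 wild-type libraries, with no overlap. Tests used limma on log2(RPKM + 1) over all genes of a table with Benjamini-Hochberg adjustment, and a gene is said to have risen or fallen where the adjusted p was below 0.05. Because 1 was added before taking logs, differences of low values are understated. Stage steps and treatment comparisons of a table share libraries and are not independent of each other.

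**Figure D1:**
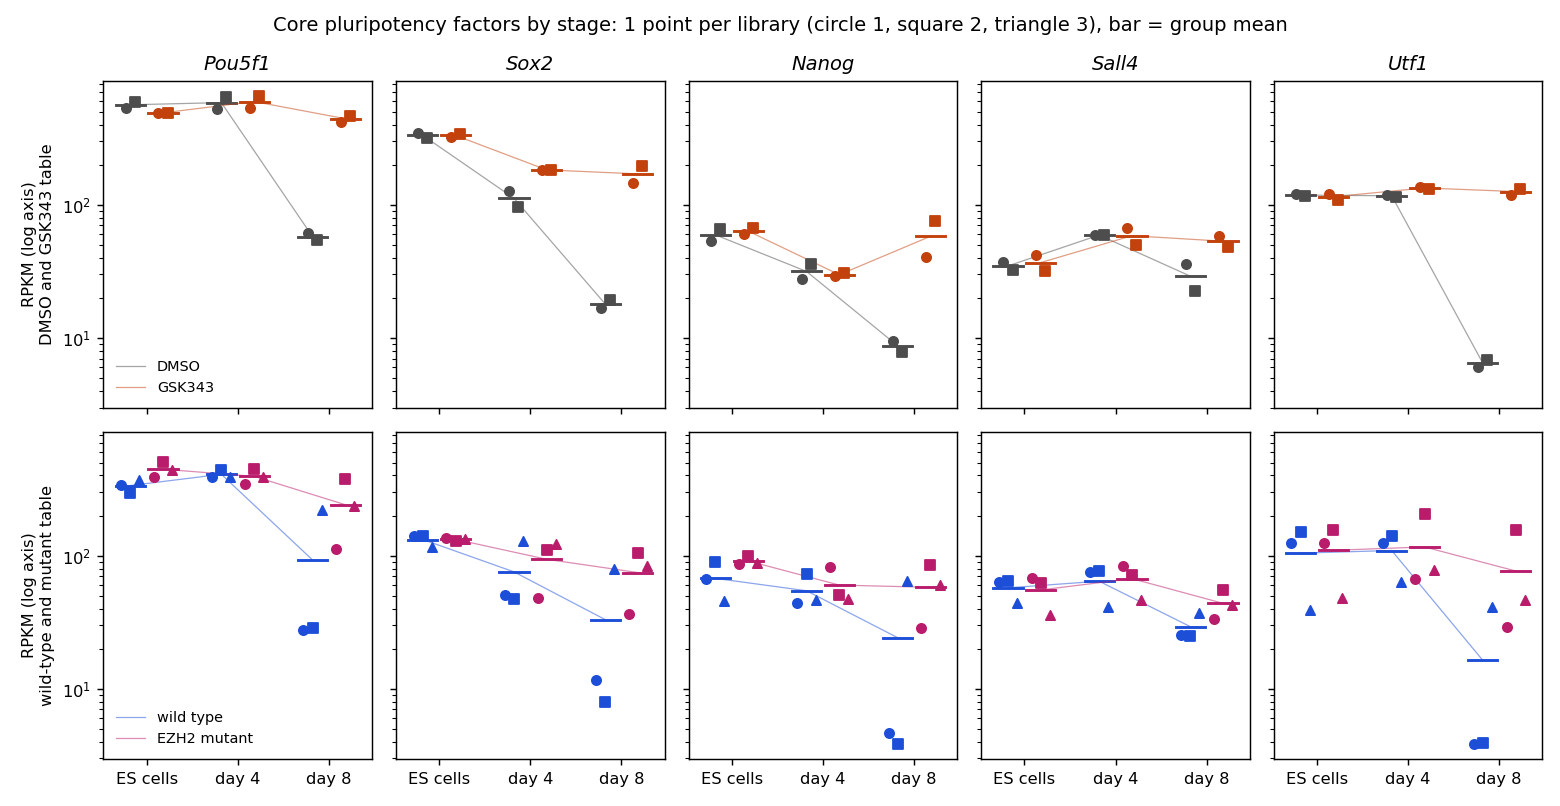
RPKM on a log axis of each of the 5 genes in ES cells, day 4 and day 8 embryoid bodies, 1 point per library, with bars at group means, for DMSO and GSK343 (upper row) and wild type and EZH2 mutant (lower row). At day 8, both DMSO libraries of Pou5f1 (60.9 and 54.5 RPKM) lie far below both GSK343 libraries (421 and 465 RPKM), whereas wild-type library 3 (222 RPKM) lies among the mutant libraries.

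In DMSO the 5 genes did not move together. By day 4 Sox2 and Nanog had fallen and Sall4 had risen, while Pou5f1 and Utf1 showed no detected difference from ES cells; by day 8 all 5 had fallen from day 4. In ES cells in DMSO the order of levels was Pou5f1 (563 ± 39.0 RPKM, SD, n = 2), Sox2 (332 ± 18.1), Utf1 (118 ± 3.65), Nanog (59.4 ± 8.85) and Sall4 (34.7 ± 3.46), and no neighbours in that order overlapped. At day 8 the order was Pou5f1, Sall4, Sox2, Nanog and Utf1, again with no overlap between neighbours, so that Utf1 had moved from the third place to the last.

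Sox2 measured 345 and 319 RPKM in the DMSO ES cell libraries, 127 and 96.7 RPKM at day 4, and 16.7 and 19.3 RPKM at day 8. It fell at both steps, 2.97-fold to day 4 (log2 difference -1.57, SE 0.17, limma adjusted p = 0.000197) and 6.21-fold to day 8 (-2.56, adjusted p = 3.64e-06). Nanog measured 53.2 and 65.7, then 27.5 and 35.7, then 9.56 and 7.88 RPKM. Each stage of Nanog was below the one before with no overlap, and both falls passed the limma test, by 0.90 to day 4 (SE 0.25, adjusted p = 0.0215) and by 1.74 to day 8 (adjusted p = 0.000437) on the log2 scale. The fall of Nanog to day 4 missed the threshold without library 2 of the ES cells (-0.75, adjusted p = 0.133) or library 1 of day 4 (-0.71, adjusted p = 0.145).

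Pou5f1 measured 535 and 591 RPKM in DMSO ES cells and 524 and 646 RPKM at day 4, and these groups overlapped. At day 8 it measured 60.9 and 54.5 RPKM, a 10.1-fold fall from day 4 (log2 difference -3.31, SE 0.17, limma adjusted p = 5.36e-07). Its day 4 step had a log2 difference of 0.05 with a 95% interval of -0.32 to 0.42. Utf1 had the same course, at 121 and 115 RPKM in ES cells, 119 and 115 RPKM at day 4, and 6.09 and 6.83 RPKM at day 8. The step to day 4 differed by -0.01 (95% interval -0.28 to 0.25), and the step to day 8 was an 18.1-fold fall (-3.98, SE 0.12, adjusted p = 1.68e-08) that left 5.47% of the ES cell mean.

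Sall4 was the 1 gene of the 5 that rose from ES cells to day 4. It measured 37.2 and 32.3 RPKM in DMSO ES cells, 58.9 and 59.5 RPKM at day 4, and 35.8 and 22.5 RPKM at day 8, with ES cells and day 8 overlapping. The rise to day 4 was 1.71-fold (log2 difference 0.76, SE 0.23, limma adjusted p = 0.0293), and leaving out any 1 of its 4 libraries took the adjusted p to between 0.0561 and 0.151. The fall from day 4 to day 8 was 2.03-fold (-1.04, SE 0.23, adjusted p = 0.00497), with -0.71 and adjusted p = 0.0512 without library 2 of day 8. At day 8, Sall4 stood at 58.7% and 41.2% of the Pou5f1 RPKM of its library, against 6.94% and 5.46% in ES cells.

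Of the 5 genes, 3 were called at the step to day 4 in DMSO, where 32.8% of all genes were called in either direction, so a call at this step was common. Fibroblast markers moved with this step, their sum being 73.4 to 97.8 RPKM in DMSO ES cells and 7.61 to 8.35 RPKM at day 4 with 8 of 10 called lower, and so did germ cell markers, at 104 to 128 and 19.7 to 24.4 RPKM with 5 of 9 called lower. Their part in the step was not tested. All 5 were called lower at the step to day 8, against 18.1% of genes. The authors' deposited table called the same 3 and the same 5 genes in these steps at an adjusted p below 0.05. Sall4 at day 4, for example, had a log2 fold change of 0.77 and an adjusted p of 0.0358 there. The share of all genes that the authors called at these steps is not given here, so these counts have no background. They come from the same libraries and are not separate evidence.

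With GSK343, all 5 genes were higher at day 8 than in DMSO, and none was called between day 4 and day 8. None of the 5 was called between GSK343 and DMSO in ES cells, where limma called 0.0% of all genes (0 of 14016, with 669 at an unadjusted p below 0.05). None was called at day 4, where 0.628% of genes were. All 5 were called higher at day 8, where 15.6% of genes were, so GSK343-treated day 8 embryoid bodies differed from the DMSO ones in every gene of the group.

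In ES cells the 95% intervals of the difference bound what the 2 libraries per group could show. They ran from -0.57 to 0.17 for Pou5f1, from -0.39 to 0.38 for Sox2, from -0.46 to 0.66 for Nanog, from -0.44 to 0.58 for Sall4 and from -0.30 to 0.22 for Utf1, on the log2 scale. Pou5f1 measured 492 and 488 RPKM in GSK343 ES cells, both below the DMSO libraries, without passing the test (adjusted p = 1 in limma).

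At day 4, Sox2 was the gene of the 5 with the largest difference between treatments. It measured 182 and 184 RPKM in GSK343 against 127 and 96.7 RPKM in DMSO, a 1.63-fold difference without overlap (log2 0.72, 95% interval 0.33 to 1.10). The limma test over all genes did not call it (adjusted p = 0.114), and 19.8% of all genes had both GSK343 libraries above both DMSO libraries at day 4. Utf1 also did not overlap, at 135 and 132 RPKM against 119 and 115 RPKM (log2 0.19, adjusted p = 0.688). Pou5f1 (534 and 657 RPKM), Nanog (29.0 and 30.6 RPKM) and Sall4 (66.8 and 50.3 RPKM) overlapped DMSO in GSK343 at day 4. Within GSK343, Sox2 (-0.85, adjusted p = 0.00743) and Nanog (-1.06, adjusted p = 0.0148) fell from ES cells to day 4, 2 of the 5, against 12.3% of genes called lower. Both calls were lost in some fits without a library, which leave 1 library in a group, while the differences changed little. Sox2 was then at -0.81, without library 2 of the GSK343 ES cells. Nanog was at -0.98 without that library, -1.02 without library 1 of day 4 and -1.10 without library 2 of day 4. The difference between the GSK343 and DMSO steps to day 4 was called for none of the 5, with Sox2 at 0.72 (SE 0.25, adjusted p = 0.519), where limma called 0.0214% of genes.

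At day 8, Utf1 had the largest difference of the group. It measured 119 and 132 RPKM in GSK343, 109% of the ES cell mean, against 6.09 and 6.83 RPKM in DMSO, a 19.5-fold difference (log2 4.09, SE 0.12, limma adjusted p = 2.03e-08). By size of log2 difference, Utf1 ranked 32 of 14016 genes, Sox2 ranked 119, Pou5f1 162, Nanog 220 and Sall4 2279. Nanog measured 40.8 and 75.2 RPKM in GSK343 against 9.56 and 7.88 RPKM in DMSO, 6.65-fold higher (2.54, SE 0.25, adjusted p = 5.46e-05). The GSK343 libraries of Nanog thus lay on both sides of its mean in GSK343 ES cells, 63.4 RPKM, and their spread (SD 24.3) was the widest of the group relative to the mean.

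Sox2 was 9.45-fold higher in GSK343 at day 8 than in DMSO, at 146 and 194 RPKM against 16.7 and 19.3 RPKM, and stood at 51.4% of its own ES cell mean. Pou5f1 was 7.67-fold higher, at 421 and 465 RPKM against 60.9 and 54.5 RPKM, and stood at 90.4% of its ES cell mean. Sall4 measured 58.6 and 47.9 RPKM in GSK343 against 35.8 and 22.5 RPKM, a 1.83-fold rise (0.88, SE 0.23, limma adjusted p = 0.0150). That call of Sall4 did not hold without library 2 of DMSO at day 8 (0.55, adjusted p = 0.140), without library 1 of GSK343 at day 8 (0.74, adjusted p = 0.0805), or when only the 2 groups compared entered the fit (adjusted p = 0.0575).

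The step from day 4 to day 8 was compared between treatments directly. The GSK343 step was higher than the DMSO step for Pou5f1, Sox2, Nanog and Utf1, 4 of the 5 genes, against 5.68% of all genes. The difference of the steps was largest for Utf1, at 3.89 on the log2 scale (SE 0.17, limma adjusted p = 6.64e-07). Sall4 was not called (0.91, SE 0.32, adjusted p = 0.101), and it was called without library 1 of DMSO at day 8 (1.23, adjusted p = 0.0442). Within GSK343 the step itself was called for none of the 5 genes, where 0.706% of genes were called. With the library number as a block, some calls of Nanog and Sall4 in this experiment changed, as given in the closing section. Both day 8 libraries of Nanog were above both day 4 libraries (0.87, adjusted p = 0.127), a difference that was called without library 1 of day 8 (1.31, adjusted p = 0.00521), where 11.5% of genes were called. Both day 8 libraries were below both day 4 libraries for Pou5f1 (-0.42, adjusted p = 0.218) and Utf1 (-0.09, adjusted p = 0.741). In that step the stages did not overlap, in either direction, for 43.4% of all genes. The authors' deposited table called 1 of the 5 in that step, Nanog, with a log2 fold change of 0.96 and an adjusted p of 0.0370, where it called 8.3% of its genes.

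Sums of cell type markers moved with these day 8 values. The summed RPKM of 10 visceral and extraembryonic endoderm markers was 145 to 196 in DMSO and 5.67 to 28.2 in GSK343, that of 7 cardiac markers was 118 to 126 and 12.4 to 24.2, and that of 10 fibroblast markers was 88.0 to 231 and 5.26 to 30.9. In the other direction, 9 germ cell markers summed to 18.1 to 18.8 in DMSO and 47.1 to 135 in GSK343. The 6 neural markers present of 12 summed to 21.6 to 22.7 and 71.6 to 82.6, with 3 called higher and 1 lower. Of all genes 15.6% were called higher and 16% lower. Over both treatments the neural sum had been 58.5 to 73.3 in ES cells and 92.3 to 118 at day 4. The germ cell sum had been 82.4 to 128 in ES cells and 19.7 to 37.4 at day 4. These germ cell markers were thus also expressed in ES cells, and their sum does not tell germ cells from ES cells. None of these markers was at 0 in all libraries of a group. Their part in the difference was not tested, and in bulk RNA fewer cells expressing a gene and less RNA per cell cannot be told apart.

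**Figure D2:**
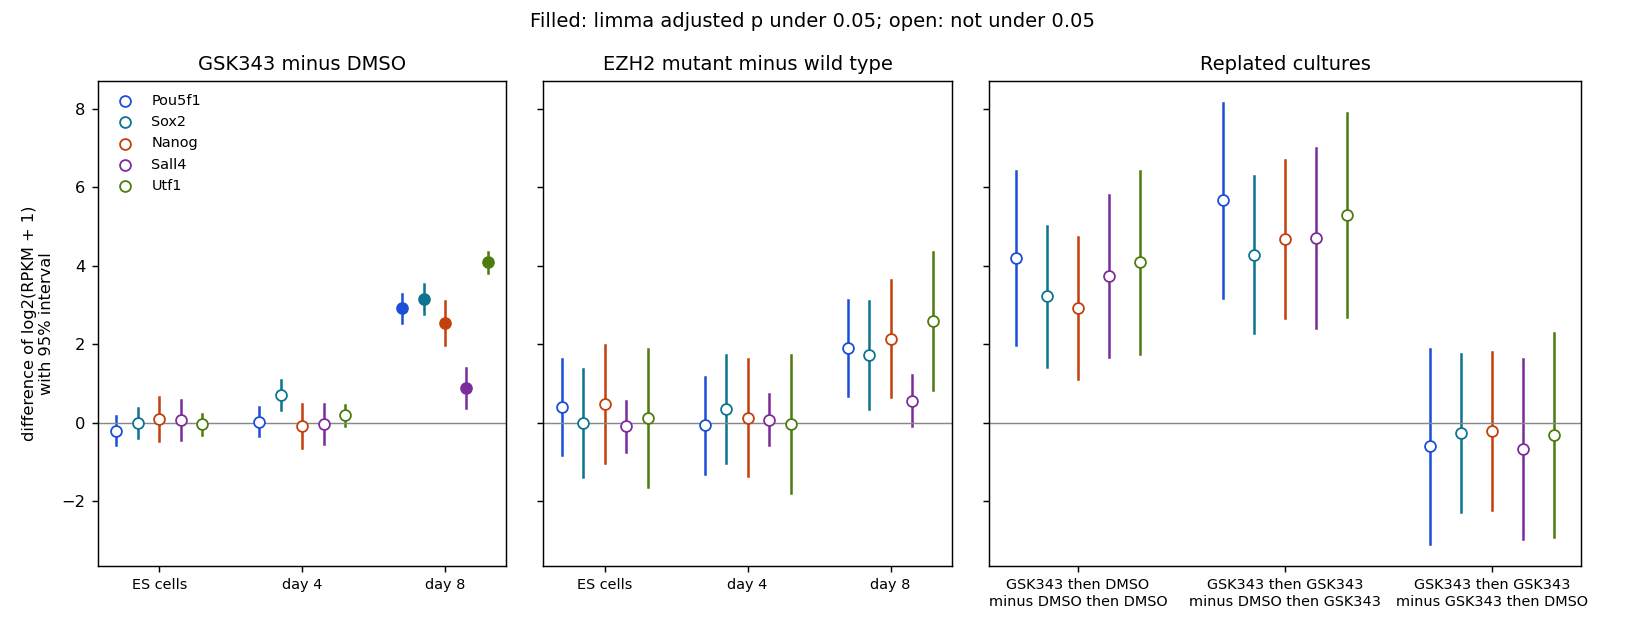
Difference of log2(RPKM + 1) with its 95% interval for each of the 5 genes, for GSK343 minus DMSO and mutant minus wild type at each stage and for 3 comparisons of replated cultures; filled points passed the limma threshold of 0.05 after adjustment. The only filled points are the 5 of GSK343 at day 8, and the intervals of the mutant and replated comparisons are wider.

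In the EZH2 mutant, no gene of the 5 was called against wild type at any stage, and at day 8 the wild-type libraries themselves differed widely. Limma called 0 of the 5 in ES cells, 0 at day 4 and 0 at day 8, where it called 0.0917%, 0.0494% and 1.51% of all genes. Adjusted p was 0.999 for each of the 5 in ES cells and 1 for each at day 4. In ES cells Pou5f1 measured 389, 509 and 439 RPKM in mutant libraries 1 to 3 and 341, 297 and 369 RPKM in the wild-type ones. The log2 difference was 0.40, with a 95% interval of -0.83 to 1.64. The intervals in ES cells were -1.36 to 1.38 for Sox2, -1.02 to 1.98 for Nanog, -0.73 to 0.57 for Sall4 and -1.63 to 1.87 for Utf1, wider than in the inhibitor experiment.

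Wild-type library 3 at day 8 stood apart in each of the 5 genes. Utf1 was at 3.87 RPKM in library 1, 3.92 RPKM in library 2 and 41.3 RPKM in library 3, against 29.1, 155 and 46.1 RPKM in mutant libraries 1 to 3. For Nanog the wild-type libraries measured 4.63, 3.85 and 64.1 RPKM, and the mutant ones 28.6, 85.1 and 59.8 RPKM. For Sox2 the wild-type libraries measured 11.5, 7.97 and 79.9 RPKM, and the mutant ones 36.6, 104 and 82.9 RPKM. In each case wild-type library 3 fell within the range of the mutant, and the other wild-type libraries fell below all 3 mutant libraries. Sall4 varied less, with wild-type values of 25.5, 25.1 and 37.4 RPKM and mutant values of 33.3, 55.2 and 42.9 RPKM. Library 3 of wild type had 21.2 M reads and 4.20% Rn45s, both inside the range of the experiment. Rn45s differed by library number in all groups of this experiment. It took 4.08% to 5.63% of reads in library 3, 6.02% to 13.4% in library 1 and 18.3% to 57.9% in library 2. The part of this difference in the values of the 5 genes was not tested.

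Marker sums also varied between libraries of a group at day 8. In wild-type libraries 1, 2 and 3 the endoderm markers summed to 143, 159 and 15.9 RPKM, the cardiac markers to 229, 180 and 14.1 RPKM, and the fibroblast markers to 362, 396 and 19.2 RPKM. In mutant libraries 1, 2 and 3 the endoderm sums were 281, 79.5 and 354 RPKM, the cardiac sums 168, 23.7 and 17.8 RPKM, and the fibroblast sums 251, 13.7 and 6.83 RPKM. Wild-type library 3 thus had the lowest cardiac and fibroblast sums of its group and an endoderm sum below every mutant library, while mutant library 3, with Pou5f1 at 236 RPKM, had the highest endoderm sum. Germ cell markers summed to 7.19, 8.21 and 62.1 RPKM in wild type and to 39.5, 71.9 and 68.2 RPKM in the mutant. Mutant library 1, with the lowest Pou5f1 (112 RPKM), Sox2, Nanog, Sall4 and Utf1 of its group, had the highest cardiac sum of the mutant libraries. The part of these markers in the values of the 5 genes was not tested.

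The day 8 differences between mutant and wild type were 1.91 for Pou5f1 (SE 0.58, limma adjusted p = 0.117), 1.73 for Sox2 (SE 0.65, 0.208), 2.15 for Nanog (SE 0.70, 0.148), 0.56 for Sall4 (SE 0.31, 0.443) and 2.59 for Utf1 (SE 0.82, 0.133). All 5 pairs of groups overlapped. Without wild-type library 3, 4 of the 5 genes were called higher in the mutant, where 9.2% of genes were called in either direction. Those differences were 2.88 for Pou5f1 and 3.36 for Nanog (adjusted p = 0.00049 for both), 2.71 for Sox2 (adjusted p = 0.00338) and 3.63 for Utf1 (adjusted p = 0.00751). Without mutant library 1, Pou5f1 alone was called (2.38, adjusted p = 0.0473), where 3.61% of genes were called. No other single library, when left out, brought a call of any of the 5.

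Between stages, wild-type embryoid bodies lost expression of 4 of the 5 genes from day 4 to day 8, where 10.2% of genes were called lower. Pou5f1 fell by 2.83 on the log2 scale (SE 0.58, limma adjusted p = 0.00523), from 393, 442 and 391 RPKM to 27.8, 28.7 and 222 RPKM. Utf1 fell by 3.38 (SE 0.82, adjusted p = 0.0122), from 124, 140.4 and 63.3 RPKM to 3.87, 3.92 and 41.3 RPKM. Nanog fell by 2.16 (adjusted p = 0.0415) with overlapping groups, and Sall4 fell by 1.08 (adjusted p = 0.0235) without overlap. Sox2 was not called (-1.72, adjusted p = 0.0701), and it was called with the library number as a block (adjusted p = 0.0298), a fit that called all 5 genes lower and 34.6% of genes in either direction. When only these 2 groups entered the fit none of the 5 was called. For the 4 genes called in the main fit, adjusted p in limma then lay between 0.0513 for Utf1 and 0.165 for Nanog.

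These wild-type calls rested on single libraries to different degrees. Nanog missed the threshold without library 1, 2 or 3 of day 4 or library 1 or 2 of day 8 (adjusted p from 0.0729 to 0.204). Sall4 missed it without library 1 or 2 of either day (0.0872 to 0.102), and Utf1 without library 1 (0.0725) or 2 (0.0669) of day 8. Sox2 was called without library 3 of day 8 (-2.70, adjusted p = 0.000831). The authors' deposited table called 2 of the 5 in that step, Pou5f1 (log2 fold change -2.14, adjusted p 9.66e-05) and Utf1 (-2.73, adjusted p 4.69e-07), among 17.1% of its genes.

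In the mutant, none of the 5 was called at either step. The step to day 4 called 6.37% of genes in the mutant and 8.67% in wild type, also with none of the 5. The step to day 8 called 10.3% of genes in the mutant, with log2 differences of -0.86 for Pou5f1, -0.34 for Sox2, -0.14 for Nanog, -0.59 for Sall4 and -0.77 for Utf1. The mutant step was not shown to differ from the wild-type step. For the step to day 8 that difference was 1.96 for Pou5f1, 1.38 for Sox2, 2.02 for Nanog, 0.48 for Sall4 and 2.61 for Utf1, each with a limma adjusted p of 0.999, and 0.0% of genes were called. Without wild-type library 3 of day 8, Pou5f1 (2.94, adjusted p = 0.0180) and Nanog (3.23, adjusted p = 0.0186) were called, among 0.205% of genes. For the step to day 4 the difference called 0.0% of genes and none of the 5.

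**Figure D3:**
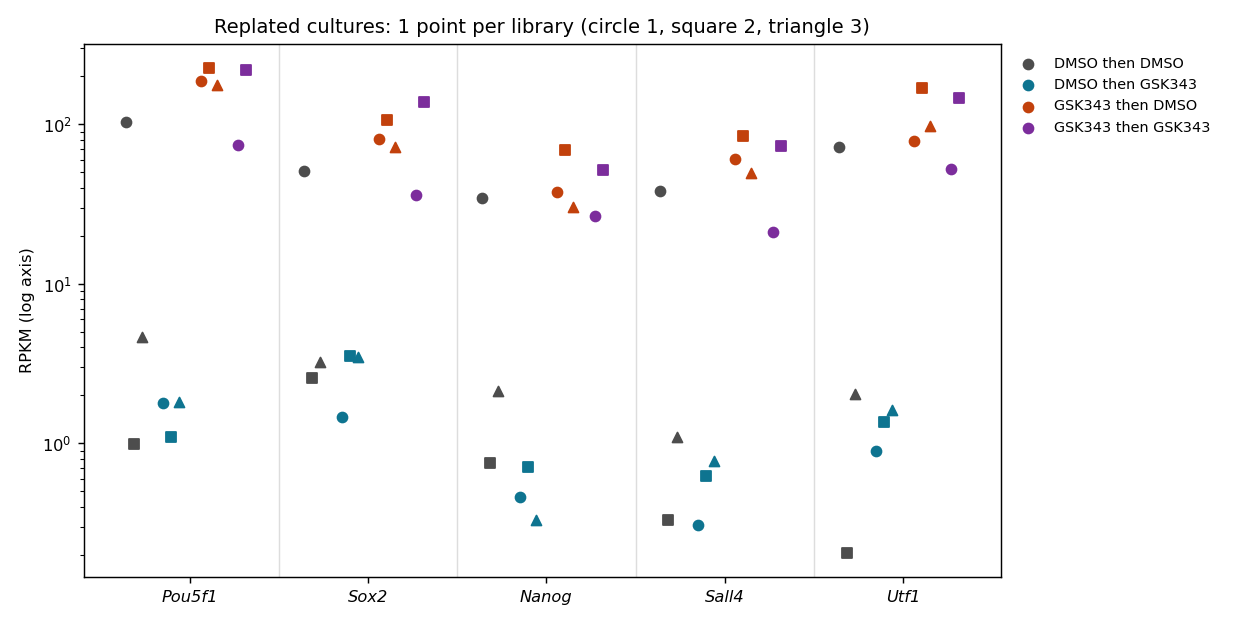
RPKM on a log axis of the 5 genes in replated cultures at day 14, 1 point per library, by the treatment during differentiation and then after replating. Libraries with GSK343 during differentiation lie between 21.2 RPKM (Sall4) and 224 RPKM (Pou5f1), while those of DMSO then GSK343 lie between 0.307 and 3.54 RPKM and 1 DMSO then DMSO library lies far above the other 2.

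After replating in ES cell medium, the 5 genes were high where GSK343 had been present during differentiation and low in most cultures differentiated in DMSO, but no difference passed the test over all genes. In DMSO then GSK343, libraries 1 to 3 measured 1.80, 1.10 and 1.81 RPKM for Pou5f1, 0.462, 0.707 and 0.333 RPKM for Nanog, and 0.307, 0.625 and 0.772 RPKM for Sall4. These low values rest on few reads, 4 per library for Nanog and 4 to 14 for Pou5f1. Sox2 had the highest mean of the 5 in that group, at 1.47, 3.54 and 3.48 RPKM from 14 to 46 reads, overlapping Pou5f1, and Utf1 measured 0.894, 1.37 and 1.61 RPKM.

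In GSK343 then GSK343, libraries 1 and 2 measured 74.7 and 220.0 RPKM for Pou5f1, 36.2 and 138 RPKM for Sox2, 26.8 and 51.3 RPKM for Nanog, 21.2 and 73.0 RPKM for Sall4, and 52.5 and 147 RPKM for Utf1. In each gene library 1 was the lower, and both were above all 3 libraries of DMSO then GSK343. For all 5 genes these groups did not overlap, where 17.9% of all genes were higher without overlap. The ratio of group means was 93.9 for Pou5f1, 30.8 for Sox2, 78.0 for Nanog, 82.9 for Sall4 and 77.2 for Utf1. The log2 differences were 5.67 (SE 1.15), 4.28 (SE 0.93), 4.67 (SE 0.93), 4.70 (SE 1.07) and 5.29 (SE 1.21) in the same order, each with a limma adjusted p of 0.115. Limma called 0 of the 5 and 0.0% of genes (0 of 14367, with 2633 at an unadjusted p below 0.05).

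The call differed between fits. When only the 2 groups compared entered the fit, which then tested 13544 genes, all 5 were called (adjusted p from 0.0161 to 0.0320), where 1.06% of genes were called. Without GSK343 then GSK343 library 1, which had the fewest reads (2.27 M) and 34.0% Rn45s, all 5 were called (log2 5.13 to 6.44, adjusted p from 0.0182 to 0.0279), where 14.8% of genes were. The remaining library is then assumed to vary like the other groups. The authors' deposited table called all 5, with log2 fold changes from 4.90 for Sox2 to 6.47 for Pou5f1 and adjusted p from 1.33e-12 to 1.67e-08, among 9.14% of its genes.

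With DMSO after replating, GSK343 during differentiation gave 188, 224 and 176 RPKM of Pou5f1, 81.1, 106 and 72.1 RPKM of Sox2, 37.7, 69.3 and 30.1 RPKM of Nanog, 60.2, 84.9 and 49.5 RPKM of Sall4, and 78.0, 169.6 and 97.9 RPKM of Utf1. DMSO then DMSO measured 104, 0.997 and 4.67 RPKM of Pou5f1, 51.0, 2.58 and 3.22 RPKM of Sox2, 34.4, 0.749 and 2.12 RPKM of Nanog, 38.4, 0.331 and 1.09 RPKM of Sall4, and 72.3, 0.207 and 2.05 RPKM of Utf1. Library 1 of DMSO then DMSO was thus far above libraries 2 and 3 in every gene, and for Nanog it lay inside the range of GSK343 then DMSO. The other 4 genes did not overlap between the groups, where 13.6% of genes were higher without overlap.

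Limma called 0 of the 5 between GSK343 then DMSO and DMSO then DMSO, and 0.0% of genes (0 of 14367, with 3385 at an unadjusted p below 0.05). The log2 differences were 4.21 for Pou5f1 (SE 1.03), 3.23 for Sox2 (SE 0.83), 2.92 for Nanog (SE 0.84), 3.75 for Sall4 (SE 0.95) and 4.09 for Utf1 (SE 1.08), each with an adjusted p of 0.169. Pou5f1, Utf1 and Sall4 ranked 5, 6 and 15 of 14367 genes by size of difference. Without DMSO then DMSO library 1 all 5 were called, with differences from 4.23 for Nanog to 5.86 for Pou5f1 and adjusted p from 0.000724 to 0.00106, where 4.15% of genes were called. With only the 2 groups in the fit, Pou5f1 (adjusted p = 0.0479) and Sox2 (adjusted p = 0.0459) were called, where 7.47% of genes were. The authors' deposited table called all 5, with log2 fold changes from 1.87 for Nanog to 2.42 for Pou5f1 and adjusted p from 0.00597 to 0.0311, among 7.49% of its genes.

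GSK343 given after replating gave no called difference in any of the 5 genes, whichever treatment had come before. Between DMSO then GSK343 and DMSO then DMSO limma called 0.0% of genes, and the differences ran from -2.06 for Pou5f1 to -1.32 for Sox2, each with an adjusted p of 0.885. The 95% interval for Pou5f1 ran from -4.27 to 0.16. Between GSK343 then GSK343 and GSK343 then DMSO limma also called 0.0% of genes, with differences from -0.66 for Sall4 to -0.20 for Nanog and an interval for Pou5f1 of -3.08 to 1.88. The difference between these 2 late effects was called for none of the 5, with 0.0% of genes called. These 2 comparisons had 328 and 196 genes at an unadjusted p below 0.05, and the difference between them had 187. The median difference of all genes was -0.23 in the former comparison and -0.04 after rescaling by the median ratio, and the differences given are not corrected for it.

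Fibroblast markers were abundant in all replated libraries. Their sum was 1525, 4326 and 2912 RPKM in DMSO then DMSO libraries 1 to 3, with the lowest sum in the library that had the highest level of each of the 5 genes. It was 2606 to 7106 RPKM in DMSO then GSK343, 1040 to 2563 RPKM in GSK343 then DMSO, and 2154 and 724 RPKM in GSK343 then GSK343 libraries 1 and 2. The 6 germ cell markers present of 9 summed to 16.4, 3.25 and 2.83 RPKM in DMSO then DMSO libraries 1 to 3, 1.42 to 2.24 RPKM in DMSO then GSK343, 14.6 to 37.9 RPKM in GSK343 then DMSO, and 12.2 and 24.8 RPKM in GSK343 then GSK343. The 9 endoderm markers present of 10 summed to 22.4, 64.9 and 29.8 RPKM, 40.0 to 50.5 RPKM, 15 to 25.6 RPKM, and 29.6 and 10.9 RPKM in the same order. Germ cell sums were lowest in DMSO then GSK343, and library 1 of DMSO then DMSO had the highest of its group. The part of these markers in the values of the 5 genes was not tested.

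Targets of OCT4 and SOX2 were described from a list of textbook genes. That list of 18 includes the Nodal inhibitors Lefty1 and Lefty2, the naive-state gene Zfp42 (REX1) and the growth factor Fgf4. From ES cells to day 4 in DMSO, 12 fell and 2 rose (median log2 difference -1.47, against 0.03 for all genes). At that step 32.8% of all genes were called in either direction. From day 4 to day 8, 15 fell and 1 rose (median -2.22, against 0.05), where 18.1% of all genes were called lower. Klf4, a factor of naive pluripotency, fell by 4.54 to day 4 (adjusted p = 9.97e-06 in limma), from 53.2 ± 2.78 to 1.34 ± 0.343 RPKM (SD, n = 2). The orphan nuclear receptor gene Esrrb fell by 3.68, from 76.2 ± 1.23 to 5.17 ± 1.83 RPKM. Lefty1, by contrast, measured 62.5 ± 7.73 RPKM at day 4 and fell by 4.56 to day 8 (adjusted p = 1.09e-07).

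At day 4, where none of the 5 genes was called, some of the targets were. Of the 18, 5 were higher in GSK343 and none lower (median 1.0, against -0.02 for all genes), where 0.499% of all genes were called higher. Leaving out any 1 of the 4 libraries leaves 1 library in a group, and most of these calls were then lost. Esrrb measured 25.5 ± 2.87 RPKM in GSK343 and 5.17 ± 1.83 RPKM in DMSO (log2 difference 2.13, limma adjusted p = 0.00949). Zfp42 measured 160 ± 17.3 and 42.9 ± 7.09 RPKM (1.88, adjusted p = 0.0177), and Gdf3, a growth factor gene, measured 38.0 ± 0.203 and 19.1 ± 0.771 RPKM (0.96, adjusted p = 0.0257). Without a library, adjusted p in limma ran from 0.0870 to 0.261 for Zfp42 and from 0.119 to 0.319 for Gdf3, and Esrrb was called only without DMSO library 1. At day 8, 16 of the 18 were higher in GSK343 and none lower (median 3.61, against 0.00), where 15.6% of all genes were called higher. Lefty1 measured 45.2 ± 5.34 RPKM in GSK343 against 1.69 ± 0.104 RPKM in DMSO.

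Of 23 genes for proteins found with OCT4 or NANOG, 11 were higher and 1 lower in GSK343 at day 8 (median 0.51, against 0.00), where 15.6% of all genes were called higher and 16% lower. Leaving out 1 library gave 5 to 9 higher and 1 lower. Nr0b1 (DAX1), a repressor expressed in ES cells, measured 23.9 ± 7.95 RPKM in GSK343 and 0.677 ± 0.194 RPKM in DMSO (log2 difference 3.86, limma adjusted p = 3.1e-06). Arid3b, a DNA-binding protein gene, was the 1 lower, at 15.5 ± 0.0596 against 34.3 ± 2.99 RPKM. At day 4, 4 of the 23 were higher and none lower, namely Esrrb, Nr0b1, Klf4 and Tfcp2l1, of which Esrrb and Klf4 are also on the list of targets, and 0 to 1 of them was called without a library.

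Other POU, SOX and SALL family genes, of which 22 of 30 could be tested, split in both directions at day 8. In GSK343, 5 were higher and 7 lower (median 0.24, against 0.00 for all genes). Of all genes 15.6% were called higher and 16% lower, so a call in either direction was common. Without a library the median ran from -0.15 to 0.29. Pou3f1, a POU factor of the later epiblast, was higher (2.55, limma adjusted p = 0.000769), and Sox18, of endothelium, was lower (-1.77, adjusted p = 0.000583). Of 12 genes that mark the exit from naive pluripotency or the primitive streak, 5 were higher and 1 lower in GSK343 at day 8. These counts compare with 15.6% of all genes called higher and 16% lower. Their median was 0.50, and it ran from -0.18 to 1.18 without a library. Otx2, an epiblast and anterior factor, measured 58.3 ± 9.60 against 7.76 ± 0.343 RPKM (2.75, adjusted p = 0.000103). Mesp1, of early cardiac mesoderm, measured 0.637 ± 0.830 against 37.4 ± 32.1 RPKM (-4.34, adjusted p = 0.000181).

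In the mutant at day 8, 2 of the 18 targets were called higher than in wild type, Fgf4 (3.74, limma adjusted p = 0.0275) and Dppa5a (4.20, adjusted p = 0.0497). The median was 2.67 against -0.02 for all genes, of which 1.51% were called in either direction. Sox15, an ES cell SOX factor, was the only family gene called (2.39, adjusted p = 0.0433), and no partner or exit gene was. None of these 3 calls held without library 1 or 2 of wild type or library 2 or 3 of the mutant, and the targets called higher numbered 0 to 13 when a library was left out. In replated cultures no gene of these lists was called. The median of the 18 targets was 4.1 between GSK343 then GSK343 and DMSO then GSK343, and 2.99 between GSK343 then DMSO and DMSO then DMSO, against medians of 0.01 and -0.09 for all genes.

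The H3K27me3 and Suz12 peaks deposited with the series touched some of the 5 genes. The mark was mapped by CUT&RUN, which releases DNA bound by an antibody target, and Suz12 is a PRC2 subunit. In the H3K27me3 set merged over wild-type stages (11884 peaks), a peak of 8063 bases at chr17:35502749-35510811 covered Pou5f1 and its printed promoter. Peaks of 35020 bases at chr3:34638979-34673998 and of 35238 bases at chr7:139935635-139970872 covered Sox2 and Utf1. No peak of the set lay within 10 kb of Nanog or Sall4. The 3 genes with a peak compare with 30.3% of 15648 gene spans that overlapped one. Since this set pools stages, it does not give the stage at which the mark was present.

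**Figure D4:**
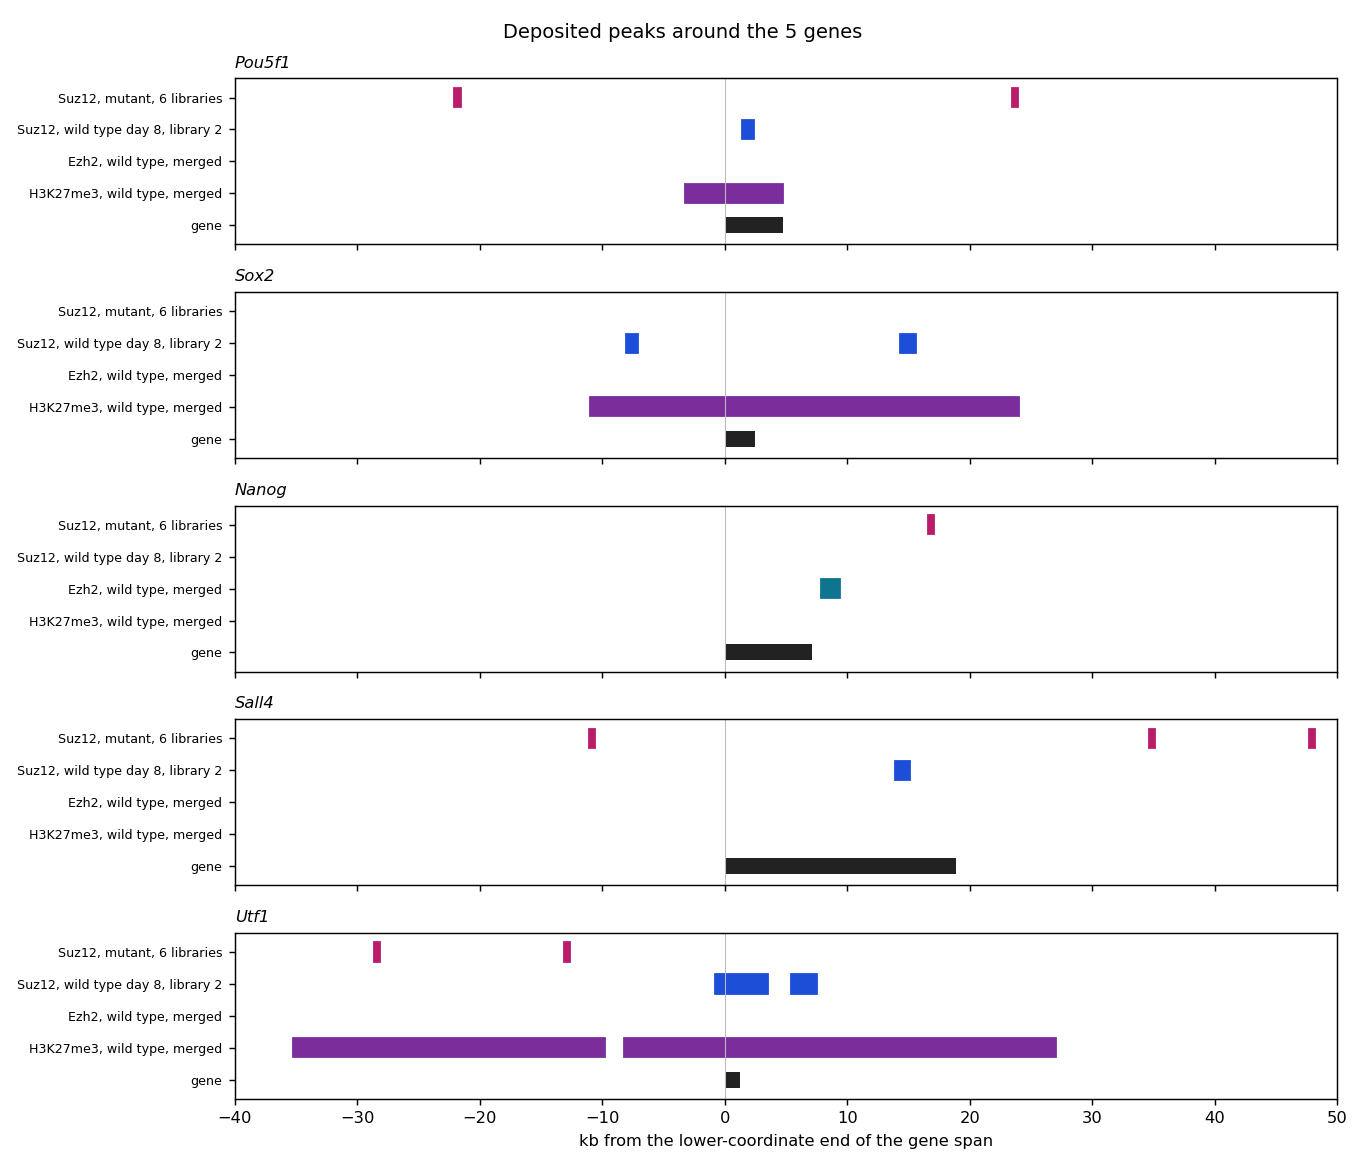
Deposited peaks around each of the 5 genes, as bars along the distance in kb from the lower-coordinate end of the gene, with the gene as a black bar. H3K27me3 peaks lie over Pou5f1, Sox2 and Utf1, and Suz12 peaks of wild-type day 8 library 2 lie over Pou5f1, Sall4 and Utf1.

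The merged wild-type sets of Suz12 (491 peaks) and of Ring1B, a PRC1 subunit (782 peaks), had no peak within 10 kb of any of the 5. Of all gene spans, 3.57% and 6.51% had one. Suz12 peaks were also deposited per library, and library 2 of each wild-type stage was used here. At day 8 (6511 peaks), peaks overlapped Pou5f1 at chr17:35507399-35508399, Sall4 at chr2:168762199-168763457 and Utf1 at chr7:139943088-139947416, the last covering its printed promoter. Peaks near Sox2 lay 7047 and 11872 bases from the gene. Of all gene spans, 20.8% overlapped a peak in that library. In wild-type ES cells (8493 peaks) and day 4 embryoid bodies (1000 peaks) no Suz12 peak lay within 10 kb of any of the 5. Of all gene spans, 13.8% and 4.26% had a peak within 10 kb there, in the same order. In 6 mutant libraries with 3322 to 8810 peaks each, none overlapped any of the 5 and the nearest lay 9437 bases from Nanog, at day 8. In those libraries 8.44% to 19.0% of all gene spans overlapped a peak, so the lack of a peak at 5 genes is not read as a loss. Peak numbers and widths differ between these libraries, with median widths of 1001 bases in wild type and 501 bases in mutant, and 1 wild-type library per stage gives no replicate, so the presence of a peak was not tested between groups. A merged Ezh2 peak lay 737 bases past Nanog, in a set of 450 peaks that overlapped 1.99% of gene spans. The authors' deposited target column marked Pou5f1, Sox2 and Utf1 as PRC2 targets and Nanog and Sall4 as not, with 32.2% of genes marked.

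Likeness of pattern was described by Pearson's correlation of log2(RPKM + 1) over the 12, 18 and 11 libraries of the 3 tables, averaged over tables, among 12437 genes. Libraries of a table share groups, scaling and the day 8 or replated contrast, so these values carry no test. Within the 5, Pou5f1 and Utf1 correlated at 0.987, 0.914 and 0.993 in the DMSO and GSK343, mutant and replated tables, and at 0.441, 0.723 and 0.982 by Spearman's rank correlation. Nanog and Pou5f1 correlated at 0.838, 0.928 and 0.991 (Pearson), and at 0.189, 0.447 and 0.900 by Spearman's. Sall4 and Sox2 correlated at 0.281 and 0.524 in the first and second of these tables and at 0.995 in the replated one. By Spearman's these were -0.210, 0.255 and 0.955. The 3 genes most like Pou5f1 were L1td1 (mean 0.983), Platr10 (0.970) and Nodal (0.970), those most like Sox2 were Tdh (0.974), Dppa4 (0.970) and Msh6 (0.967), and those most like Nanog were Tdgf1 (0.959), Gls2 (0.945) and Pipox (0.935). For Sall4 they were Zscan10 (0.940), Pelp1 (0.935) and Ina (0.918). For Utf1 they were Pou5f1 (0.965), B3gnt7 (0.965) and Rps4l (0.950).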

How the data were processed

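Of 69 samples in the labels, 42 are RNA-seq and 27 CUT&RUN; 41 RNA-seq libraries in 16 groups had values, and 0 per-sample columns were left aside. Groups come from the labels and column names. The authors deposited 3 tables of RPKM, per the file headers. STAR 2.5.3, featureCounts 1.6.1, edgeR, HOMER 4.10.3 and Bowtie2 2.3.4.3 and the build mm10 are named per the submitters' processing notes, with no roles. How reads were annotated, filtered and stranded was among the details not given in the sources used here. RPKM times gene length summed to 1 M (mega) per library in the inhibitor and replated tables and to 0.811 to 2.23 M in the wild-type and mutant table, whose values thus carry a further scaling per library, with 138 of its genes lacking a length. Reads per library were recovered from the steps of the RPKM, with 100% of values within 0.02 of a whole read. The authors' log2 fold changes and adjusted p-values were taken as deposited, per the file headers, and their deposited peak coordinates and PRC2 target column were used as given, the rule of that column being not given in the sources used here.

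Each table was fitted separately with limma 3.58.1 in R 4.3.3 (lmFit, contrasts.fit, eBayes with trend) on log2(RPKM + 1). Genes were kept at 0.5 RPKM or more in a number of libraries equal to the smallest group, which left 14016 of 14607, 14180 of 14772 and 14367 of 14833 genes. All groups of a table entered 1 fit, and Benjamini-Hochberg adjustment was applied per contrast, with a threshold of 0.05. The fits were also run on simulated data with the same spread in every group. Groups whose libraries differed widely were not simulated, so that run does not show how the fits perform on them. Differences between effects were interaction contrasts. Promoter sequences and gene spans are from RefSeq tables of GRCm38.p6, which matched 15648 of 15924 genes. The 5 genes, the lists and the tests were chosen with earlier results of these data known. Named genes are the 5, Ezh2, up to 4 genes of each list with the smallest p, and per gene the 3 most like it, without predicted, RIKEN and histone genes. Of the marker lists, 7 of 12 neural, 6 of 9 germ cell, 9 of 10 endoderm and 2 of 7 cardiac genes were present in the replated table.

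Library numbers were checked for pairing by the correlation of deviations from group means. Between adjoining stages of the mutant, each same-numbered pair (0.339 to 0.736) was above the highest with another number, as judged from these data alone. Between mutant and wild type at day 4, same-numbered pairs ran from 0.290 to 0.806, but library 2 (0.290) correlated more with another number (0.478). Between adjoining stages of wild type they ran from 0.151 to 0.425. There, library 2 from ES cells to day 4 (0.151 against 0.177) and library 1 from day 4 to day 8 (0.222 against 0.342) correlated more with another number. Nor did numbers pair all libraries between mutant and wild type in ES cells (0.049 for library 2) or at day 8 (-0.259 for library 2), or in replated cultures. Alternatives were another pseudocount, no filter, other scalings, voom on recovered reads, only the groups compared, the library number as a block and leaving out each library.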

Additional observations from a re-analysis of the deposited data

Results flagged for a closer look

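The step from day 4 to day 8 differed between GSK343 and DMSO in 4 of the 5 genes by the test of the difference itself, an interaction contrast in limma. The difference, GSK343 minus DMSO, was 2.89 for Pou5f1 (SE 0.24, adjusted p = 5.37e-05), 2.44 for Sox2 (SE 0.25, adjusted p = 0.000183), 2.61 for Nanog (SE 0.36, adjusted p = 0.0014) and 3.89 for Utf1 (SE 0.17, adjusted p = 6.64e-07), on the log2(RPKM + 1) scale. In DMSO each of these genes was called lower at day 8 than at day 4, where 18.1% of all genes were called lower. In GSK343 both day 8 libraries were below both day 4 libraries for Pou5f1 and Utf1 and above for Nanog, and the stages overlapped for Sox2; none of these steps within GSK343 was called, and 43.4% of all genes had stages that did not overlap there.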

How the results depend on the processing

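Over 115 differences of the 5 genes, 1520 values were computed under other settings: 1458 kept their side of the threshold, 31 lost a call and 31 gained one. None of the called values changed sign, and 70 uncalled ones did. Of the 5 genes, the step from ES cells to day 4 called 3 in DMSO and 1 to 2 when a library was left out. In the inhibitor table the labels link libraries of different groups by number alone. Same-numbered deviations correlated at 0.177 to 0.667, positive for each pair of groups. What same-numbered libraries shared is not given in the labels, and the main fit ignored the number. The step to day 4 in GSK343 called 2, 3 with the replicate block, and 0 to 2 when a library was left out. In GSK343 the step to day 8 called 0, 1 with the replicate block (Nanog, 0.87, adjusted p = 0.0431 in limma), and 0 to 1 without a library. In wild type that step called 4, 5 with the replicate block, 0 with only the groups compared, and 1 to 5 without a library. The block took the difference of the GSK343 and DMSO steps of Sall4 to an adjusted p of 0.0112, and called Sall4 from ES cells to day 4 in GSK343 (0.65, adjusted p = 0.00655). Mutant against wild type at day 8 called 0, and 0 to 4 without a library; the difference of the mutant and wild-type steps to day 8 called 0, and 0 to 2. GSK343 then DMSO against DMSO then DMSO called 0, 2 with only the groups compared, and 0 to 5 without a library. GSK343 then GSK343 against DMSO then GSK343 called 0, 5 with only the groups compared, and 0 to 5 without a library. Within 10 kb of a merged Ezh2 peak there was 1 gene, and 0 overlapped one; within 10 kb of a Suz12 peak of mutant day 8 library 1 there was 1, and 0 within 1 kb or overlapping. Of the 3 genes most like each of the 5, Spearman's correlation chose 0 of the same for Pou5f1, Sox2 and Utf1 and 1 for Nanog (Gls2) and Sall4 (Zscan10). With 7 letters of the octamer, chosen after seeing the data, 2 genes had a match, against 0 with 8. The cause of these changes was not tested beyond the libraries and groups named. Counts over all genes moved too: GSK343 against DMSO at day 8 called 4434 genes, 2785 to 6005 under other settings and 2366 to 3909 without a library; at day 4 it called 88, 60 to 270 and 1 to 21. Mutant against wild type at day 8 called 214, and 3 to 616, or 16 to 1302 without a library. Low replated values rest on few reads, such as 4 of Nanog in each DMSO then GSK343 library.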
